A study of Mus musculus with 8 samples.

Results

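Car1, Car2, Ermap, Aqp1, Rhd and Blvrb are 6 genes known from the erythroid lineage, and they were taken by name as 6 of the 27998 gene rows of a single-cell count table. Their levels were followed across the progenitor states of mouse bone marrow and across 8 pools of mice kept in 2 kinds of housing. All 6 had UMIs (unique molecular identifiers, each standing for 1 captured transcript). Car1 had 359941, Car2 321021, Blvrb 94072, Aqp1 40433, Ermap 17222 and Rhd 14888 UMIs in all cells, and each of the 6 passed the filter on low counts in the 3 comparisons of housing over all cells, erythroid-like cells and all other cells.

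Erythroid progenitors pass from cells that can still form megakaryocytes to committed precursors, under factors such as GATA1 and KLF1, and then build up the membrane proteins and enzymes of the red cell. Car1 and Car2 encode cytosolic carbonic anhydrases, which interconvert carbon dioxide and bicarbonate, and Car1 is a classical marker of erythroid colony-forming cells. Aqp1 encodes the water channel of the red cell membrane, Rhd the Rh blood group protein, which sits in the membrane with Rhag, and Ermap a membrane protein of the butyrophilin family that carries the Scianna blood group in humans. Blvrb encodes biliverdin reductase B, a cytosolic enzyme that reduces flavins and biliverdin.

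The cells were KL cells, sorted from the bone marrow of B6 female mice aged 3 to 4 months as c-Kit+ (CD117+) cells without CD3, CD4, CD8, CD45R, CD11b, TER119 or GR1. The sort on TER119 removes maturing red cell precursors. CVT mice were co-housed in a conventional facility for 1 month and SPF mice stayed in a specific pathogen-free facility, with 10 mice in each group. Each group gave 4 pools of 2 or 3 mice (CVT pools 3, 4, 5 and 6 and SPF pools 1, 2, 7 and 8), and the pool was the replicate. Pools 1 to 4 held the lower-numbered mice and pools 5 to 8 the higher-numbered ones, so these 2 pool sets were treated as a possible batch that holds both groups.

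The table held 17560 cells from CVT and 12331 from SPF mice, with 2759 to 49732 UMIs in a cell and 19041749 to 59812346 UMIs in a pool. A barcode that also occurred in another pool was carried by 1048 cells (3.51%). Clustering without the 6 genes gave 32 clusters, of which 8 with 8509 cells were called erythroid-like from fixed markers. All 25 erythroid markers on that list were higher in these cells than in the other cells of every pool. The same list named the clusters, so this is no independent check of the class. Summed haemoglobin transcripts, in UMIs per 1000000 UMIs (CPM) over all KL cells, ran from 134 to 174 over the first 4 pools and from 1546 to 4502 over pools 5 to 8, so the pool sets stood apart in these transcripts.

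In GENCODE M21 (build GRCm38) Car1 lies at chr3:14766216-14808368 on the minus strand and Car2 at chr3:14886273-14900770 on the plus strand, 77905 bases apart with Car3, another carbonic anhydrase, between them. Ermap lies at chr4:119175457-119190011 on the minus strand and Rhd on the same chromosome at chr4:134864536-134896172 on the plus strand. Aqp1 lies at chr6:55336432-55348555 and Blvrb at chr7:27447978-27466144, both on the plus strand. The RefSeq table of promoters (GRCm38.p6) held an entry for 4 of the 6 genes, Ermap, Aqp1, Rhd and Blvrb.

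The 250 bases before the start site of the membrane genes Ermap, Rhd and Aqp1 are shown because their levels set out at different points of the erythroid path, and because these windows held a match to the GATA letters AGATAA or TGATAA or to the KLF letters CCACACCC or CCCCACCC, searched on both strands. The windows are chr4:119189996-119190245 on the minus strand for Ermap, chr4:134864286-134864535 on the plus strand for Rhd and chr6:55336049-55336298 on the plus strand for Aqp1. Each is written 5′ to 3′ on the gene's strand, with the match in capitals.
Ermap: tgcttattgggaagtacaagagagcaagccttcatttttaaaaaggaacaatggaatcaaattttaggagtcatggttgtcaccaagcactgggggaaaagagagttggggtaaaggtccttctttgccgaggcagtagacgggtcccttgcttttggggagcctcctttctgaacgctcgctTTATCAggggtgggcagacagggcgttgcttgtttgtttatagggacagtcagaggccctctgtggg
Rhd: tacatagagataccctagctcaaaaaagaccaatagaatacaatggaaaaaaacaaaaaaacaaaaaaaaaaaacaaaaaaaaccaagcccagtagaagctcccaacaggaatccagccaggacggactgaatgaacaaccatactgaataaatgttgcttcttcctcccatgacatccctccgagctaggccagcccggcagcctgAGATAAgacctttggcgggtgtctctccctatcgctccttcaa
Aqp1: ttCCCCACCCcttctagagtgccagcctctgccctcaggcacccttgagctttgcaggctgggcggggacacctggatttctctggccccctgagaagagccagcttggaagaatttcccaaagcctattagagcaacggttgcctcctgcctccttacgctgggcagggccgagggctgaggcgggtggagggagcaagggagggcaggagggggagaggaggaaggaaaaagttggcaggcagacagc
The match of Ermap was TGATAA on the opposite strand, printed as TTATCA, and began 67 bases before the start site. Rhd held AGATAA 43 bases before its start site, and Aqp1 held CCCCACCC 248 bases before its own. These distances count from the start sites of the RefSeq table, which for Ermap and Aqp1 differ from the GENCODE gene starts given above. Among 32851 promoter windows of this length, 9.99% held AGATAA, 7.94% TGATAA, 3.20% CCACACCC and 9.05% CCCCACCC on either strand. Either GATA word was held by 16.6% and either KLF word by 11.8%, which are the shares to set beside a search for all 4 words. A match is a description of the letters only. Neither of the 2 windows listed for Blvrb held any of the 4 words.

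All 6 genes were concentrated in the erythroid-like cells, though to different degrees. These cells held 96.4% of the Ermap UMIs, 96.5% of Rhd, 94.4% of Car1, 87.5% of Blvrb, 87.1% of Aqp1 and 80.2% of Car2. Levels are given below as CPM of a state without further scaling, as the mean over pools with at least 20 cells of that state, and the states were ordered where at least 3 pools had so many cells (19 of 22 states). They compare a gene with itself between states, since the 3′ counts of different genes are not on 1 scale. Such sums cannot tell a lower number of expressing cells from less RNA in each cell. The 8 erythroid-like clusters are called by number, and clusters 10, 14, 16 and 29 had the highest scores of 10 erythroid genes that were not among the 6. Cluster 29, with 137 cells, was led by haemoglobin genes, and cluster 27, with 159 cells, by interferon-response genes. Levels in cluster 29 rest on 3 pools. Haemoglobin in erythroid-like cells ran from 292 to 421 CPM in pools 1 to 4 and from 4377 to 16258 in pools 5 to 8. Erythroid-like cluster 30, with 98 cells and the lowest erythroid score of the 8, was left out of the order because 2 pools had enough cells, as were the unnamed cluster 31, led by Ccl5 and Rora (92 cells, 1 pool), and 49 T-NK-like cells (no pool). Cluster 30 had 1408 ± 175 CPM (SD, n = 2 pools) for Car1, 905 ± 204 for Car2, 295 ± 63.9 for Blvrb, 168 ± 5.71 for Aqp1 and 59.5 ± 8.63 for Ermap. Its pools lay far apart for Rhd, at 3.34 and 42.9. In the single pool of cluster 31 Car1 was at 275, Car2 at 93.6, Blvrb at 81.9, Aqp1 at 41.0 and Ermap at 5.85, while Rhd had 3 UMIs in all 92 cells of the cluster. Since clusters and genes were measured in the same cells, differences between clusters are descriptions without a test.

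Car1 was highest in clusters 14 and 10, and lower in the cluster with the highest erythroid score. Its level was 3898 ± 216 (SD, n = 8 pools) in cluster 14, 3735 ± 247 (n = 8) in cluster 10, 3227 ± 321 (n = 7) in cluster 16 and 2909 ± 110 (n = 8) in cluster 2, neighbours whose ranges of 1 SD overlapped. Cluster 1, the largest with 2777 cells and a low erythroid score, had 1297 ± 73.7 (n = 8). The haemoglobin-led cluster 29, with 137 cells and the highest mean erythroid score, was close to it at 1246 ± 314 (n = 3). This holds for that cluster only, since the highest of 8 bins of cells by erythroid score, described below, had 3032 ± 363 (n = 8). Of the 137 cells of cluster 29, 91 fell in that bin and 26 in the lowest, so the cluster was not uniformly high in the score. Cells resembling pre-megakaryocyte-erythroid progenitors had 551 ± 154 (n = 7), megakaryocyte-like cells 378 ± 122 (n = 8) and the unnamed cluster 13, led by Ms4a2 and Fcer1a, genes of basophils and mast cells, 292 ± 38.2 (n = 8). Late granulocyte-like cells had 116 ± 61.4 and the unnamed cluster 7, led by Pf4 and Gp1bb, genes of the megakaryocyte path, 78.2 ± 33.1 (n = 8). Stem-like, lymphoid-primed-like, multipotent-like, monocyte-dendritic-like, granulocyte-monocyte-like and B-like cells and the unnamed cluster 20, led by F13a1, lay between 46.7 and 59.1, neighbours in order overlapping throughout.

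Car2 had a different order, with a second group of high states outside the erythroid-like cells. It was highest in clusters 29 (4294 ± 502, n = 3) and 16 (4030 ± 343, n = 7), followed by clusters 14 (3077 ± 238, n = 8) and 10 (2176 ± 225, n = 8), and from cluster 16 on each of these stood apart from the next by more than their SDs. Pre-megakaryocyte-erythroid-like cells had 1278 ± 123 (n = 7), cluster 2 had 1132 ± 162 (n = 8) and stem-like cells 946 ± 149 (n = 8), and these neighbours overlapped. Stem-like cells, which carry genes such as Procr and Hlf, thus lay above the 586 ± 66.0 (n = 8) of erythroid-like cluster 1. The Pf4-led cluster 7 had 704 ± 103 (n = 8), megakaryocyte-like cells 644 ± 91.2 (n = 8), lymphoid-primed-like cells 370 ± 64.7 (n = 8) and multipotent-like cells 265 ± 46.7 (n = 8). Granulocyte-monocyte-like and monocyte-dendritic-like cells, at 50.3 ± 14.4 and 50.6 ± 15.5 (n = 8), were far below all of these, as was cluster 20 at 45.6. Cluster 27 (758), the Ms4a2-led cluster 13 (308), B-like cells (159) and late granulocyte-like cells (107) filled the order between.

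In the ordered states Ermap was low until the erythroid score had risen. Cluster 30, left out of the order and with the lowest score of the 8, had 59.5 ± 8.63 (n = 2), above clusters 27 and 1. Clusters 16 (232 ± 26.6, n = 7), 29 (207 ± 44.7, n = 3), 10 (188 ± 12.5, n = 8) and 14 (173 ± 19.4, n = 8) overlapped their neighbours, while cluster 2 had 103 ± 13.7 (n = 8) and the interferon-led cluster 27 had 25.5 ± 4.05 (n = 3). Cluster 1 had 13.9 ± 5.13 (n = 8) and overlapped pre-megakaryocyte-erythroid-like cells at 11.3 ± 5.54 (n = 7). Megakaryocyte-like cells had 6.18 ± 4.91 (n = 8), and the other states in the order lay between 1.26 and 2.93.

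Rhd stood above its lowest levels in 5 of the 19 states in the order. Cluster 29 had 591 ± 122 (n = 3), cluster 16 had 277 ± 30.4 (n = 7), cluster 14 had 145 ± 28.0 (n = 8), cluster 10 had 94.7 ± 18.6 (n = 8) and cluster 2 had 28.2 ± 9.09 (n = 8), and each stood apart from the next by more than their SDs. In erythroid-like cluster 1 Rhd was at 2.45 ± 1.49 (n = 8), within the 1.23 to 3.94 of the ordered states outside clusters 2, 10, 14, 16 and 29. Aqp1, the water channel, differed from both in being nearly level along the path. Cluster 29 had 402 ± 73.2 (n = 3), cluster 2 had 386 ± 50.4 (n = 8), cluster 16 had 328 ± 18.7 (n = 7) and cluster 1 still had 242 ± 41.9 (n = 8), with clusters 14 (315), 10 (293) and 27 (245) between, and neighbours among these 7 clusters overlapped throughout. Pre-megakaryocyte-erythroid-like cells had 141 ± 49.6 (n = 7), megakaryocyte-like cells 87.4 ± 23.5 (n = 8) and the Pf4-led cluster 87.3 ± 16.02 (n = 8), while stem-like and granulocyte-monocyte-like cells had 14.6 ± 4.49 and 11.1 ± 4.43 (n = 8). Cluster 13 had 52.0 and the remaining states in the order between 10.8 and 18.98.

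Blvrb, the reductase, had graded levels along the path. Cluster 29 had 1658 ± 146 (n = 3), cluster 16 had 1136 ± 39.6 (n = 7), cluster 14 had 844 ± 37.2 (n = 8), cluster 10 had 745 ± 33.3 (n = 8), cluster 2 had 506 ± 26.98 (n = 8) and cluster 1 had 323 ± 21.3 (n = 8), each apart from the next by more than their SDs. The Ms4a2-led cluster had 187 ± 27.2 (n = 8), megakaryocyte-like cells 129 ± 21.8 (n = 8), stem-like cells 57.6 ± 6.76 (n = 8) and granulocyte-monocyte-like cells 28.9 ± 5.19 (n = 8). Pre-megakaryocyte-erythroid-like cells (165), B-like cells (129) and cluster 7 (96.2) lay between the first and the third of these, and the other states in the order between 26.9 and 45.2, except cluster 27 at 318, which overlapped cluster 1. Blvrb had the most distinct order of the 6 genes, since neighbours stood apart in 8 of 18 pairs of states, against 6 for Car2, 5 for Rhd and 3 each for Car1, Ermap and Aqp1.

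**Figure D1:**
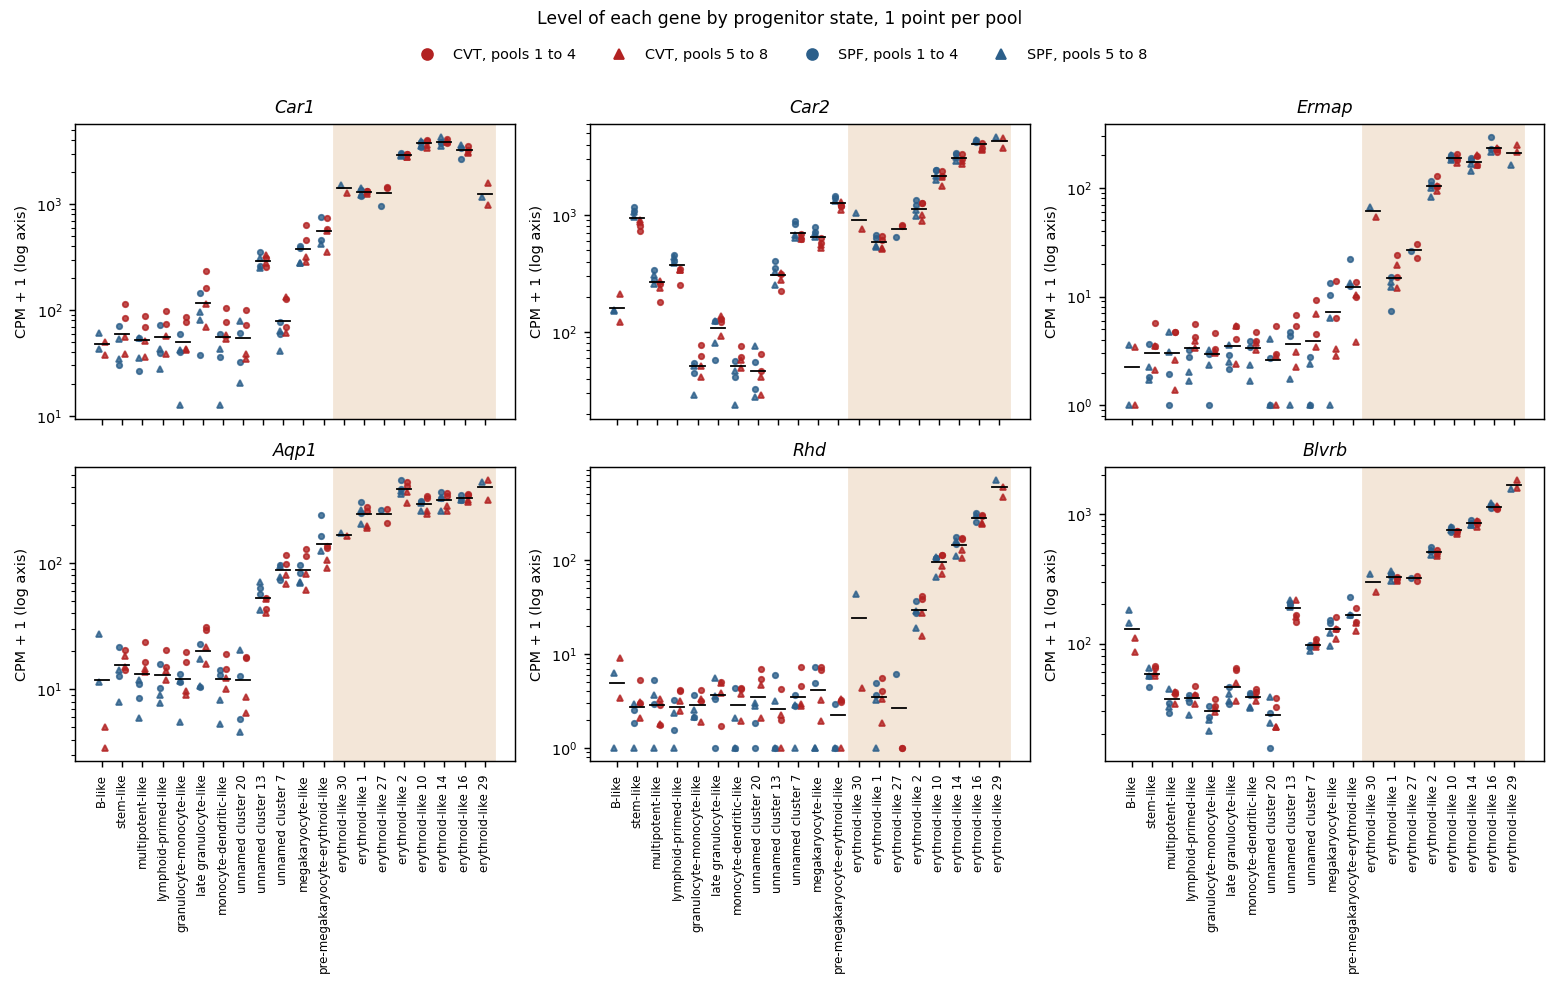
Level of each gene (CPM + 1, log axis) by progenitor state, with 1 point per pool coloured by housing a line for the mean over pools with at least 20 cells, and the 8 erythroid-like clusters shaded (cluster 31 and T-NK-like cells are left out). Car2 is at 946 in stem-like cells, where Car1 is at 59.1, while Rhd lies near its lowest levels in erythroid-like cluster 1 (2.45).

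The share of cells with a UMI was compared after each cell was thinned to 2759 UMIs, the smallest cell total, since the median was 8208 UMIs in erythroid-like and 15863.5 in granulocyte-monocyte-like cells. Car1 was detected in 89.8% ± 1.75 (SD, n = 8 pools) of thinned erythroid-like cells and Car2 in 86.0% ± 3.20. Blvrb was detected in 71.6% ± 3.97, Aqp1 in 53.4% ± 4.77, Ermap in 22.3% ± 4.38 and Rhd in 14.1% ± 4.09. The background taken from granulocyte-monocyte-like cells, which should lack these transcripts, was 11.7% for Car1, 13.1% for Car2, 7.04% for Blvrb, 2.79% for Aqp1, 0.625% for Rhd and 0.423% for Ermap. Without thinning the erythroid-like shares were 94.0% for Car1, 94.7% for Car2, 90.4% for Blvrb, 82.5% for Aqp1, 48.3% for Ermap and 33.7% for Rhd.

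Detection of Car2 in stem-like cells, 85.3% ± 3.47 after thinning, was close to that in the erythroid-like cells, while Car1 was detected in 14% ± 5.81 of stem-like cells and so lay near its background of 11.7%. Car2 was detected in 92.8% of pre-megakaryocyte-erythroid-like, 74.6% of megakaryocyte-like, 53.6% of lymphoid-primed-like and 43.8% of multipotent-like cells. In erythroid-like cluster 1 Ermap was detected in 3.31% and Rhd in 0.665% of thinned cells, the latter at the background level. In cluster 16 Rhd was detected in 54.3% and Car2 in 100%.

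To place the genes along the erythroid path, 8939 cells (the erythroid-like and pre-megakaryocyte-erythroid-like ones) were ordered by a score of Klf1, Gata1, Gfi1b, Epor, Tfrc, Mfsd2b, Hemgn, Samd14, Cldn13 and Rhag, none of which is a member, and cut into 8 bins of 1117 or 1118 cells. The order is one of similarity, not of time, and the median depth went with it from 5645 UMIs per cell in bin 1 to 24762 in bin 8. Values are levels in CPM, which remove the difference in depth but not in the composition of the transcripts.

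The 6 genes reached their levels at different points of this order. Aqp1 had 63.5% of its highest bin mean already in bin 1 and 88.8% by bin 4. Car1 had 39.0% in bin 1, 70.9% in bin 3 and its highest mean in bin 7 (3585), and was at 84.6% (3032) in bin 8. Ermap and Blvrb had 14.3% and 26.5% in bin 1, and 57.7% and 52.1% in bin 5. Car2 had 21.3% in bin 1, 53.8% in bin 6 and 67.9% in bin 7, and went from a mean of 838 in bin 1 to 3944 in bin 8. Rhd was the latest, with 3.14% in bin 1 and 45.1% in bin 7.

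The order of the genes was much the same in single pools. The bin in which a gene first had at least 50% of its highest level was, as the median and range over 8 pools, bin 1 (1 to 2) for Aqp1, 2.5 (1 to 3) for Car1, 5 (4 to 6) for Ermap, 5 (3 to 7) for Blvrb, 6 (5 to 8) for Car2 and 8 (7 to 8) for Rhd. The ranges of Aqp1 and Car1 overlapped, as did those of Ermap, Blvrb and Car2, and Blvrb met Car1 at bin 3. Rhd came after Ermap and Blvrb in every pool and after Car2 in all but SPF pool 7, where both first had this level in bin 8. Car1 peaked in bins 5 to 7 in all pools, whereas Car2, Ermap, Rhd and Blvrb were highest in bin 8 in all pools.

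**Figure D2:**
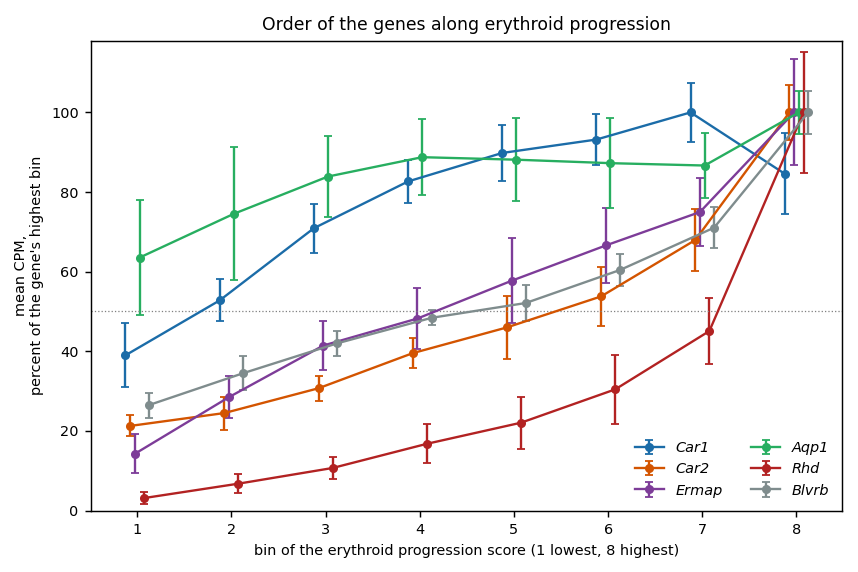
Mean level of each gene as a percentage of its highest bin mean (y axis) over 8 bins of the erythroid score (x axis), with error bars for the SD over 8 pools. Aqp1 starts at 63.5% and Rhd at 3.14%, and only Car1 is lower in bin 8 (84.6%) than in bin 7.

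Co-detection was described in erythroid-like cells thinned to the same depth, which lie at different places along this order. Ermap was detected in 41.8% ± 7.80 (SD, n = 8 pools) of cells with Rhd and in 19.01% ± 3.51 of cells without it. Car2 was detected in 97.8% of cells with Rhd and in 84.1% of cells without it, and Blvrb in 89.0% and 68.7%. Of cells without Car2, 2.26% had Rhd, against 15.9% of cells with Car2. Aqp1 was detected in 54.4% of cells with Blvrb and in 50.7% of cells without it, the smallest of these contrasts.

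Likeness between genes was described by Pearson's r of log2(CPM + 1) over 31 clusters, which share libraries and depth, so no p is given. Among the 6, Car1 and Aqp1 were most alike (r = 0.960) and Car2 and Rhd least (r = 0.668), while Car1 and Car2, the neighbouring carbonic anhydrase genes, had r = 0.762. Among 8007 genes the pattern of Car1 was most like Ces2g (r = 0.985), a carboxylesterase, Tspo2 (0.979) and Prss50 (0.972). Aqp1 was most like Ces2g (0.984), Klf1 (0.983), the erythroid transcription factor, and Epor (0.973), the erythropoietin receptor. Blvrb was most like Rfesd (0.964), Klf1 (0.961) and Epor (0.957). Klf1 and Epor are also in the score above, and they and Tspo2 are among the markers that named the clusters.

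The other 3 genes had likenesses of their own. Ermap was most like Slc25a21 (r = 0.986), a mitochondrial carrier, Myh10 (0.969), a nonmuscle myosin, and Smim1 (0.962), which carries the Vel blood group. Rhd was most like Sowaha (0.968), Cldn13 (0.960), a claudin that is also in the score above, and Add2 (0.958), an adducin of the membrane skeleton. Cldn13 and Add2 are also among the markers that named the clusters. Car2 was most like Gm11837 (0.947), Nfia (0.944), a transcription factor, and Arhgef12 (0.933), and its highest r was below those of the other 5 genes.

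The relatives of the 6 genes were mostly low in these cells. In the carbonic anhydrase family only 5 of 16 listed genes could be tested in erythroid-like cells, and the next after Car1 and Car2 was Car3 at 8.04 ± 1.17 CPM (SD, n = 8 pools), below its 11.8 ± 1.08 in other cells. Among 12 aquaporins Aqp9 and Aqp11 followed Aqp1, with 35.2 ± 3.87 and 31.7 ± 4.50 in erythroid-like and 5.05 and 4.15 in other cells. Rhag, the partner of Rhd, was at 34.8 ± 7.46 and 0.868 ± 0.301. Of the heme degradation enzymes, Blvra, the other biliverdin reductase, was at 53.6 ± 5.13 and 42.1 ± 2.53, and Hmox2, a heme oxygenase, at 44.2 ± 4.03 and 77.1 ± 5.28. The butyrophilin relatives of Ermap were Btnl9, at 8.25 ± 2.84 and 8.91 ± 1.01, and Btnl10, at 3.65 ± 1.43 and 0.0973 ± 0.0841.

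Housing was then compared over the UMI sums of the 4 CVT and 4 SPF pools with the quasi-likelihood test of edgeR. Values in these comparisons are CPM with TMM scaling, folds are log2 of CVT over SPF, and p-values are adjusted by the Benjamini-Hochberg method over all genes tested. They rest on pools of several mice. In all KL cells none of the 6 genes passed an adjusted p of 0.05, and 0% of 13092 genes did. Before adjustment, p was under 0.05 for 392 genes that were higher in CVT mice (2.99%) and 529 that were lower (4.04%), none of them a member. DESeq2 called 0.229% of the same genes and none of the 6. None of the 6 had its CVT pools wholly above or wholly below the SPF pools, as 2.37% and 2.54% of genes did.

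Car1 was at 1119, 1073, 671 and 909 CPM in SPF pools 1, 2, 7 and 8 and at 1412, 1290, 883 and 925 in CVT pools 3, 4, 5 and 6. The log2 fold was 0.25 (SE 0.18, 95% CI -0.16 to 0.66, edgeR adjusted p = 0.794), and the pools of the groups overlapped. Pools 5 to 8 were lower than pools 1 to 4 in either group. Rhd was at 40.1, 43.0, 18.1 and 41.2 CPM in the SPF pools and at 60.2, 61.8, 28.0 and 37.6 in the CVT pools in the same order. Both CVT pools of the first set lay above every SPF pool and both of the second set within the SPF range, with a log2 fold of 0.39 (SE 0.30, 95% CI -0.28 to 1.05, edgeR adjusted p = 0.804). SPF pool 7 was far below the other SPF pools, and without it the fold was 0.18.

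The other 4 genes overlapped between the groups in KL cells as well. Ermap was at 24.4 to 60.8 CPM in SPF and 39.7 to 70.3 in CVT pools, with a log2 fold of 0.32 (SE 0.25, edgeR adjusted p = 0.804). Blvrb was at 175 to 307 and 232 to 337 CPM (0.21, SE 0.17, edgeR adjusted p = 0.811). Aqp1 was at 80.2 to 147 and 92.9 to 157 CPM (0.12, SE 0.22, edgeR adjusted p = 0.920). Car2 was at 597 to 1075 and 758 to 1181 CPM (0.09, SE 0.19, edgeR adjusted p = 0.935). The median log2 fold of the 6 genes was 0.23, and that of all genes tested was -0.01.

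The share of erythroid-like cells, which such sums contain, was 34.2, 31.3, 25.1 and 22.4% in SPF pools 1, 2, 7 and 8 and 34.9, 30.7, 26.6 and 23.7% in CVT pools 3, 4, 5 and 6. The means over 4 pools were 29% ± 4.85 (SD) for CVT and 28.3% ± 5.44 for SPF mice, so they lay 0.744 percentage points apart. A two-sided exact permutation test over 70 regroupings gave p = 0.8, with 0.0286 the smallest p possible. Pools 1 to 4 had 30.7 to 34.9% and pools 5 to 8 had 22.4 to 26.6%. The SDs therefore hold the difference between the pool sets, which the test did not take into account. Within each pool set the groups overlapped.

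In the erythroid-like cells alone the log2 folds lay between -0.01 for Aqp1 and 0.23 for Rhd. Again none of the 6 passed, nor did any other of the 10950 genes (0%). Before adjustment, 300 genes (2.74%) were higher and 445 (4.06%) lower with p under 0.05, none of them a member, and DESeq2 called 0.0183%, again none of the 6. No member had CVT pools wholly above (2.27% of genes) or wholly below (1.77%) the SPF pools. Ermap was at 152, 143, 96.0 and 143 CPM in the SPF pools and at 170, 160, 130 and 177 in the CVT pools. The log2 fold was 0.22 (SE 0.13, 95% CI -0.05 to 0.49, edgeR adjusted p = 0.713), with CVT pool 5 inside the SPF range and the other CVT pools above it. Rhd was at 100.2, 122, 71.0 and 148 CPM in the SPF pools and at 146, 165, 91.7 and 129 in the CVT pools, which overlapped widely (log2 fold 0.23, SE 0.19, 95% CI -0.18 to 0.64, edgeR adjusted p = 0.786).

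Car1 was at 2742, 2985, 2575 and 3167 CPM in the SPF pools and at 3345, 3377, 2830 and 3135 in the CVT pools (log2 fold 0.12, SE 0.07, 95% CI -0.04 to 0.27, edgeR adjusted p = 0.719). Its 2 highest pools were CVT pools 3 and 4, and the other CVT pools lay within the SPF range. The log2 fold of Blvrb was 0.13 (95% CI -0.08 to 0.34), that of Car2 0.12 (95% CI -0.15 to 0.39) and that of Aqp1 -0.01 (95% CI -0.21 to 0.18), with edgeR adjusted p-values of 0.757, 0.833 and 0.984. All of these intervals include 0, and how small a difference 4 pools in each group could detect was not tested.

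**Figure D3:**
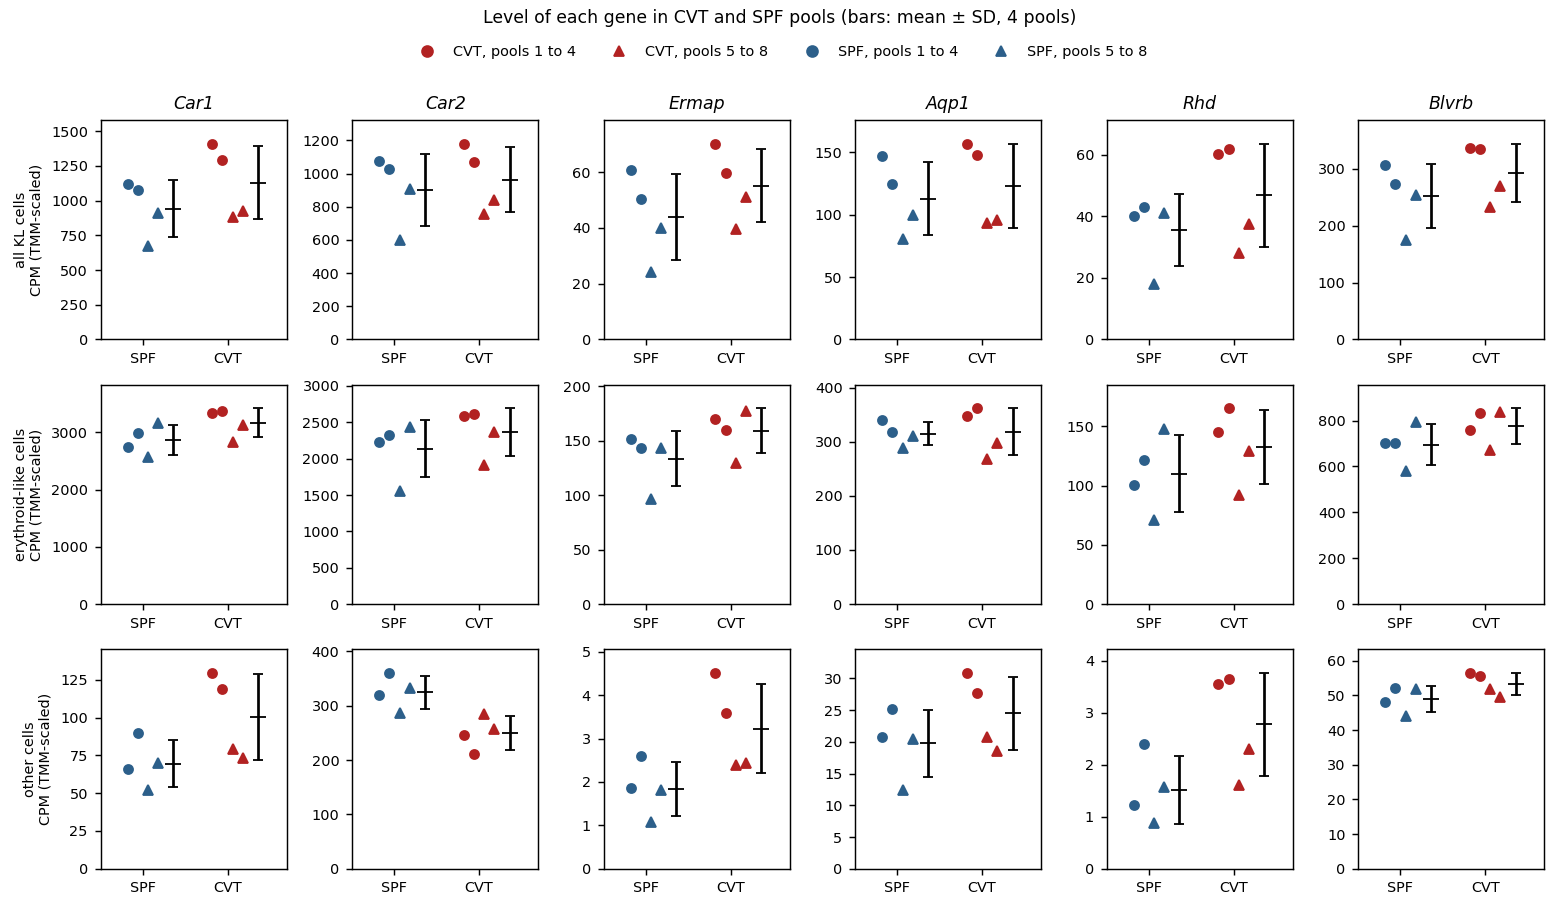
Level of each gene (CPM with TMM scaling, y axes from 0) in every pool of SPF and CVT mice, in all KL cells, in erythroid-like cells and in other cells, with bars for the mean ± SD of 4 pools. The groups overlap in every panel but that of Car2 in other cells, where the lowest SPF pool (286) lies just above the highest CVT pool (285).

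The make-up of the erythroid-like class also differed between pools. Clusters 10, 14, 16 and 29 made up 30.9, 29.4, 17.0 and 35.2% of the erythroid-like cells in SPF pools 1, 2, 7 and 8 and 40.3, 46.0, 30.4 and 44.9% in CVT pools 3, 4, 5 and 6. These clusters hold the highest levels of Rhd, Ermap and Blvrb, and SPF pool 7, with the smallest share, was lowest for Car1, Car2, Ermap, Rhd and Blvrb in erythroid-like cells. Rhd in erythroid-like cells was lowest in SPF pool 7 (71.0 CPM, share 17.0%) and highest in CVT pool 4 (165 CPM, share 46.0%). Between these its order was not strictly that of the share, as with 129 CPM in CVT pool 6 (44.9%) and 148 in SPF pool 8 (35.2%). The part of this share in the folds was not tested, and folds within single clusters are given instead. Within single clusters the folds of Car1 were 0.07 in cluster 1, 0.02 in cluster 2, 0.02 in cluster 10, 0.03 in cluster 14 and 0.01 in cluster 16. Those of Rhd were 0.17 in cluster 2, -0.04 in cluster 10, -0.06 in cluster 14 and -0.09 in cluster 16, and in cluster 1 Rhd was not tested because its counts were too low.

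No fit in clusters 1, 2, 10, 14 and 16 passed the adjusted threshold for any of the 6 genes, and 2 had an unadjusted p under 0.05. Car2 had a log2 fold of -0.17 in cluster 16 (95% CI -0.29 to -0.04, unadjusted p = 0.0112, edgeR adjusted p = 1.0), where 1.58% of genes were lower at that level and SPF pool 7 had only 13 cells. Ermap had 0.58 in cluster 1 (95% CI 0.06 to 1.10, unadjusted p = 0.0294, edgeR adjusted p = 0.979), where it was at 16.9 CPM in CVT and 10.9 in SPF mice and 2.83% of genes were higher at that level.

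**Figure D4:**
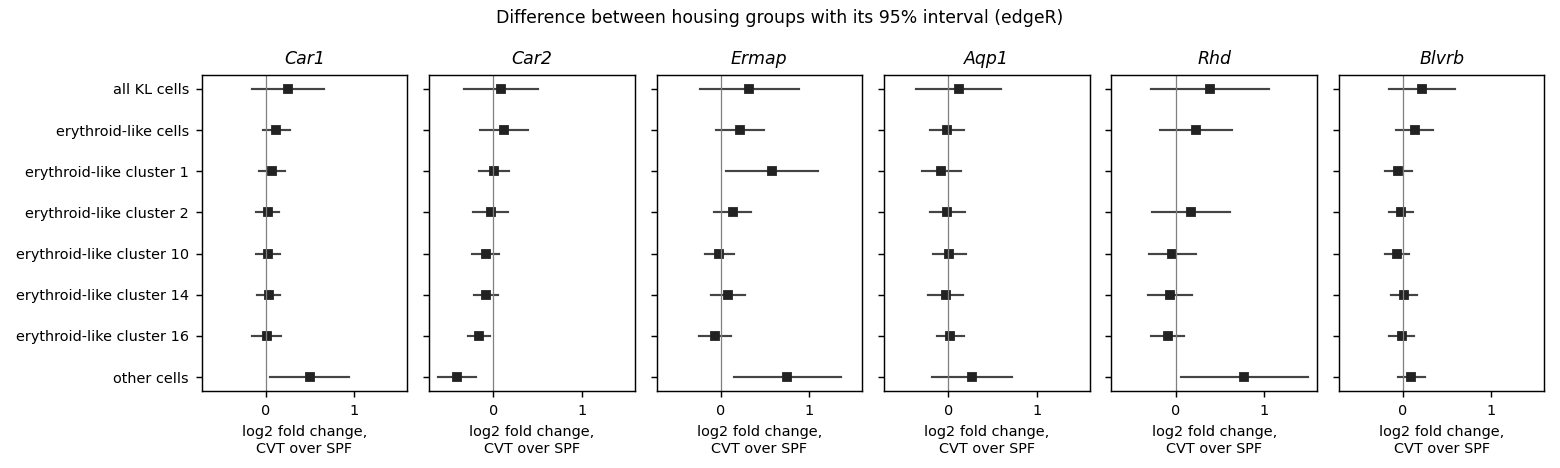
Log2 fold of CVT over SPF mice with its 95% confidence interval (x axis) for each gene in all KL cells, erythroid-like cells, single erythroid-like clusters and other cells. In erythroid-like cells all 6 intervals include 0 (Rhd 0.23, Aqp1 -0.01), while that of Car2 in other cells lies below it (-0.41).

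The pool sets were compared as the batch. Within pools 1 to 4, with 2 pools in each group, Rhd was higher in CVT mice with a log2 fold of 0.54 in KL cells (edgeR adjusted p = 0.0110, where 1.1% of genes were called) and 0.44 in erythroid-like cells (edgeR adjusted p = 0.0110, 2.83% called). Within pools 5 to 8 its folds were 0.14 and -0.02. Over 17 alternative fits in KL cells and 21 in erythroid-like cells the adjusted p of Rhd ran from 0.0110 up to 1.0. With the pool set as a block none of the 6 genes was called in KL cells (0.0306% of genes), erythroid-like cells (0%) or other cells (0.047%). The difference between the pool sets was itself tested as an interaction, and none of the 6 genes passed in either population (for Rhd, edgeR adjusted p = 0.717 and 0.857).

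Outside the erythroid-like cells the log2 fold of Car2 was negative and those of the other 5 genes were positive. Car2 was at 319, 360.3, 286 and 332 CPM in SPF pools 1, 2, 7 and 8 and at 246, 210.4, 285 and 257 in CVT pools 3, 4, 5 and 6. Every CVT pool was below every SPF pool, although CVT pool 5 and SPF pool 7 were almost level, and 1.87% of 12775 genes had CVT pools wholly below. The log2 fold was -0.41 (SE 0.10, 95% CI -0.62 to -0.19, unadjusted p = 0.00177), which did not pass adjustment (edgeR adjusted p = 0.539), nor did any gene (0%). Before adjustment, 3 members were among the 3.82% of genes that were higher and Car2 among the 4.12% that were lower with p under 0.05. With DESeq2 the fold was -0.40 and the adjusted p 0.00735, where 0.611% of genes were called. Within pools 1 to 4 the fold was -0.61 (edgeR adjusted p = 0.0420, 0.453% called) and within pools 5 to 8 it was -0.19. Over 21 alternatives the adjusted p ran from 0.00735 to 0.915. These sums mix states, with Car2 at 946 CPM in stem-like and 50.3 in granulocyte-monocyte-like cells. Stem-like cells numbered 180, 403, 221 and 717 of 1888, 3845, 2064 and 4534 KL cells in SPF pools 1, 2, 7 and 8. In CVT pools 3, 4, 5 and 6 they numbered 305, 275, 452 and 403 of 4845, 4176, 4341 and 4198. The part of their share in the fold over all cells outside the erythroid-like class was not tested.

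In the same cells Car1 was at 66.0, 89.96, 52.0 and 69.9 CPM in the SPF pools and at 129.5, 119, 78.9 and 73.1 in the CVT pools (log2 fold 0.50, SE 0.20, 95% CI 0.05 to 0.94, edgeR adjusted p = 0.588). CVT pools 3 and 4 were the highest, and pools 5 and 6 lay within the SPF range. Ermap, at 3.23 ± 1.02 CPM in CVT and 1.84 ± 0.623 in SPF mice (SD, n = 4), and Rhd, at 2.77 ± 0.989 and 1.52 ± 0.653, were near their levels in granulocyte-monocyte-like cells (1.95 and 1.87) and had log2 folds of 0.75 and 0.78 (edgeR adjusted p = 0.558 and 0.591). Summed over the 25 erythroid markers, these cells had 145 to 168 CPM in CVT and 122 to 167 in SPF pools, and the part of such RNA in the folds of Car1, Ermap and Rhd was not tested.

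Car2 was then followed in the states where it was well detected. In stem-like cells it was at 1033, 1157, 1045 and 947 CPM in SPF pools 1, 2, 7 and 8 and at 805, 752, 894 and 919 in CVT pools 3, 4, 5 and 6. All CVT pools lay below all SPF pools, as for 1.64% of genes, with a log2 fold of -0.31 (SE 0.07, 95% CI -0.47 to -0.16, unadjusted p = 0.000352, edgeR adjusted p = 0.793). In lymphoid-primed-like cells it was at 437, 394, 392.3 and 429.8 CPM in the SPF pools and at 345, 258, 347 and 345 in the CVT pools. These groups did not overlap either, as for 1.77% of genes lying wholly below (log2 fold -0.35, SE 0.08, 95% CI -0.53 to -0.17, unadjusted p = 0.000654, edgeR adjusted p = 0.683).

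In the other states that could be tested the differences ran in both directions. Car2 had log2 folds of -0.29 in megakaryocyte-like cells (edgeR adjusted p = 1.0), -0.25 in multipotent-like cells (0.778) and -0.19 in the Pf4-led cluster (1.0), and the pools of the groups overlapped in all 3. In granulocyte-monocyte-like and monocyte-dendritic-like cells, where Car2 was at its background of about 50.3 CPM, the folds were 0.38 and 0.56 (edgeR adjusted p = 0.896 and 0.815). Car1 had positive folds in each of these states, from 0.37 in megakaryocyte-like to 0.95 in monocyte-dendritic-like cells, and 0.54 in both stem-like and lymphoid-primed-like cells (edgeR adjusted p = 0.910 and 0.920). Its levels in stem-like and lymphoid-primed-like cells (59.1 and 55.1 CPM) were near that in granulocyte-monocyte-like cells (49.3).

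The stem-like class consisted of clusters 4 and 12, and Car2 was higher in cluster 12. This cluster made up 19.02 and 17.8% of the stem-like cells of CVT pools 3 and 4 and 33.4 to 38.5% of those of the other 6 pools. Within cluster 4 Car2 was at 840.3, 941, 847 and 850.3 CPM in the SPF pools and at 739, 660.3, 757 and 813 in the CVT pools, still without overlap, as for 1.68% of genes (log2 fold -0.23, unadjusted p = 0.00328, edgeR adjusted p = 0.929). Within cluster 12 the groups overlapped, at 1128 to 1633 CPM in SPF and 1075 to 1224 in CVT pools (log2 fold -0.25, unadjusted p = 0.00520, edgeR adjusted p = 0.729).

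CVT pools 3 and 4 also stood apart in other ways in stem-like cells. A list of 12 genes, called handling stress here, held Fos, Fosb, Jun, Junb, Jund, Egr1, Ier2, Hspa1a, Hspa1b, Dusp1, Atf3 and Zfp36. The name is a label only, and whether handling or housing set these levels was not tested. The summed level of these genes was 2281 and 3007 CPM in CVT pools 3 and 4, against 963 to 1677 in the other pools. The summed stem markers of the same 2 pools were at 747 and 608, against 783 to 856. Within pools 1 to 4 the log2 fold of Car2 in stem-like cells was -0.50 (edgeR adjusted p = 0.000919, 0.674% called) and that of Car1 was 0.88 (edgeR adjusted p = 0.00162). Car1 was near its background in stem-like cells (59.1 CPM, against 49.3 in granulocyte-monocyte-like cells). In granulocyte-monocyte-like cells it was at 37.2 and 58.2 CPM in SPF pools 1 and 2 and at 86.5 and 77.8 in CVT pools 3 and 4. The part of free RNA in the fold of Car1 was not tested. Within pools 5 to 8 the fold of Car2 was -0.13 in stem-like cells and that of Car1 was 0.01. In lymphoid-primed-like cells the fold of Car2 was -0.46 within pools 1 to 4 (edgeR adjusted p = 0.0365, 0.432% called) and -0.25 within pools 5 to 8. Over 14 alternatives the fold ran from -0.50 to -0.13 in stem-like and from -0.46 to -0.25 in lymphoid-primed-like cells, with adjusted p-values from 0.000919 and 0.00261 up to 1.0. The lowest in lymphoid-primed-like cells came without the filter on low counts, where 0.221% of genes were called, and in stem-like cells that fit gave 0.00292 (0.296% called). The part of the stress-list and stem-marker differences in these values was not tested.

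**Figure D5:**
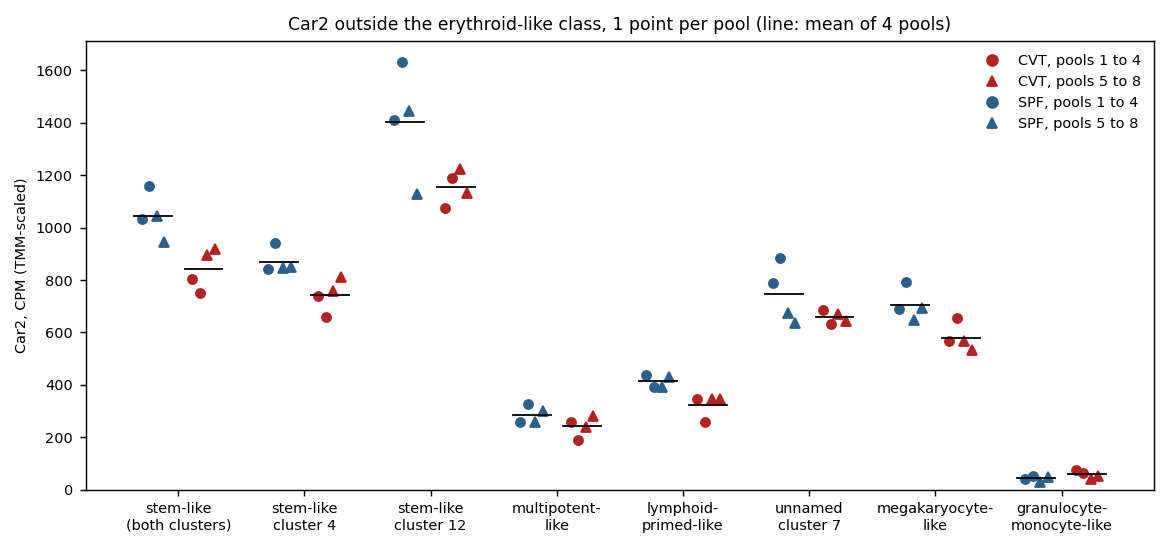
Car2 (CPM with TMM scaling, y axis) in every pool of SPF and CVT mice for stem-like cells with their 2 clusters and 5 other states, with a line for the mean of 4 pools. In stem-like cells the CVT pools lie between 752 and 919 and the SPF pools between 947 and 1157.

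Other members had pools that did not overlap in 3 further comparisons. These were picked out of all fits of the 6 genes over every class and cluster tested, some of which share cells. Ermap in lymphoid-primed-like cells was at 3.30 ± 0.913 CPM in CVT and 1.38 ± 0.659 in SPF mice (SD, n = 4), with CVT wholly above, as for 1.73% of genes there (log2 fold 1.29, edgeR adjusted p = 0.840). Aqp1 in multipotent-like cells was at 16.5 ± 4.33 and 8.09 ± 2.61 CPM, as for 2.19% of genes (log2 fold 0.84, edgeR adjusted p = 0.672). Blvrb in the Pf4-led cluster was at 102 ± 6.46 and 90.5 ± 3.15 CPM, as for 1.72% of genes (log2 fold 0.17, edgeR adjusted p = 1.0). Both of the first 2 levels were within the range of the background in granulocyte-monocyte-like cells.

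No gene of the lists compared was called in erythroid-like cells, where edgeR called 0% of all genes and 2.74% were higher and 4.06% lower in CVT mice with p under 0.05 before adjustment. Of the erythroid membrane and skeleton genes 32 of 33 could be tested, and edgeR and DESeq2 called none (3 higher and 1 lower with p under 0.05 before adjustment), with a median log2 fold of 0.07. The 15 erythroid regulators, such as Klf1 (272 ± 18.5 CPM) and Lmo2 (332 ± 16.3), gave none (1 lower unadjusted) and a median of -0.05. Of the carbonic anhydrases (5 tested), aquaporins (4), Rh proteins (2), heme degradation enzymes (4) and butyrophilins (3) both tools called none, with 1 carbonic anhydrase and 1 butyrophilin lower in CVT before adjustment. The 10 genes of the score gave none (1 higher unadjusted, median 0.04), the haemoglobins (4 of 7 tested) none at either level (median -0.54) and the handling stress genes (11 of 12 tested) none (2 higher unadjusted, median 0.07), beside a median of -0.00 over all genes.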

How the data were processed

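KL cells of 8 pools were run on the 10x Chromium 3′ version 2 platform. The authors aligned reads and counted UMIs with Cell Ranger (version not given in the sources used here, build mm9 per the submitters' processing notes) and deposited UMI counts, not normalized, for 29891 cells. All cells were kept, and the pool was read from the number ending each cell name. A doublet caller (Scrublet in scanpy 1.11.5) marked 0.308%, too few for a caller that works, so doublets were kept.

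Counts scaled to 10000 per cell were clustered without the 6 genes (30 neighbours, Leiden resolution 2, leidenalg 0.10.2). Clusters were called "-like" when their specific genes held at least 3 fixed markers and their leading genes did not go against the name. Pool sums of UMIs went into edgeR 4.0.16 (TMM, low-count filter, quasi-likelihood), with DESeq2 1.42.0 as an alternative. On simulated data the edgeR fits over KL, erythroid-like and other cells recovered 82.5%, 89.5% and 84.5% of 200 genes changed 2-fold. False calls were 15 of 180, 13 of 192 and 11 of 180. The simulated counts had no difference between pool sets, and the folds of the 6 genes in these comparisons were all smaller than 2-fold. The recovery therefore does not show how often folds of that size would be found here. Replicates are pools, so SDs and p-values rest on the spread between pools. All 6 genes were named, with the 3 genes most like each by r and the 3 highest of each list. The members and gene lists were chosen with earlier results of these data known. Gene positions come from GENCODE M21 (GRCm38), a different build from that of the reads, and were matched by symbol. Alternatives were DESeq2, other filters and scalings, thinned counts, other clusterings, the pool sets as a block and apart, and each pool left out. The fits within each pool set, within single clusters and classes, and the alternatives for Car2 in stem-like, lymphoid-primed-like and megakaryocyte-like cells were chosen after seeing the data.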

Additional observations from a re-analysis of the deposited data

Results flagged for a closer look

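SPF pool 7 stood apart from the other SPF pools for 2 of the 6 genes. Over all KL cells Rhd was at 18.1 CPM in this pool and at 40.1 to 43.0 in the other 3, and the gap was 0.887 of the whole range, above Dixon's 95% critical value for 4 samples. In erythroid-like cells Ermap was at 96.0 CPM in this pool and at 143 to 152 in the others, a gap of 0.840 of the range. These were 2 of 38 groups of 4 pools examined, and chance alone gives about 1 in 20. In the same pool clusters 10, 14, 16 and 29 made up 17.0% of 519 erythroid-like cells, against 29.4% to 35.2% in the other SPF pools, and the part of this share in both values was not tested. Without SPF pool 7 the log2 fold of Rhd in KL cells was 0.18 and that of Ermap in erythroid-like cells 0.10, with edgeR adjusted p-values of 0.984 and 0.979.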

How the results depend on the processing

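Of 354 alternative fits of the 6 genes in KL, erythroid-like and other cells, 338 kept the direction and the side of the threshold, 12 turned the direction and 4 passed the threshold. Genes called in KL cells numbered 30 with DESeq2, 4 with the pool set as a block and 146 within pools 1 to 4. In erythroid-like cells they numbered 1 without the low-count filter, 2 with DESeq2, 1 with thinned counts and 319 within pools 1 to 4, and in other cells 78 with DESeq2, 6 with the block and 58 within pools 1 to 4. The log2 folds that passed were those of Rhd within pools 1 to 4 (0.54 in KL and 0.44 in erythroid-like cells) and of Car2 in other cells with DESeq2 (-0.40) and within pools 1 to 4 (-0.61). Folds turned for Car2 in KL cells with thinned counts (-0.00933), for Aqp1 in erythroid-like cells without the filter (0.0171) and within pools 1 to 4 (0.0654), and for Rhd in erythroid-like cells within pools 5 to 8 (-0.0165). At resolution 1 the share of erythroid-like cells differed by -0.306 percentage points, CVT minus SPF. With each pool left out the fold ran from -0.0628 to 0.193 for Car2 and from -0.00600 to 0.283 for Aqp1 in KL cells, from -0.000671 to 0.210 for Car2 and from -0.0674 to 0.0617 for Aqp1 in erythroid-like cells, and the difference in share from -1.22 to 2.71 points. The lowest values for Car2 in KL and in erythroid-like cells and for Aqp1 in KL cells came without SPF pool 7, and that of the share without SPF pool 8. Of 42 alternatives for Car2 in stem-like, lymphoid-primed-like and megakaryocyte-like cells, none turned the direction, 38 kept the side of the threshold and 4 passed it. The causes were not tested. Free RNA, the pool sets and 4 pools in each group limit what low levels can show.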
